A study of Mus musculus with 7 samples.

Results

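The Zic family genes Zic1, Zic2, Zic4 and Zic5 were followed by symbol, 4 genes of the 32285 features measured in each cell, across 7 single-cell RNA-seq libraries. The cells were EGFP-positive cells sorted from mouse embryos on a mixed Swiss-Webster background that carried 1 Wnt1-Cre allele and 1 ROSA-EGFPf reporter allele (Wnt1-Cre/+;ROSA-EGFPf/+), so that EGFP marks cells in which the Wnt1-Cre transgene was active and their descendants. The controls comprised 1 library at E8.5 (the anterior part of the embryo), 1 at E9.5 (pharyngeal apparatus with the heart) and 2 at E10.5 (the pharyngeal arches caudal to the first, with the heart). The study's sample list adds the neural tube to the tissue dissected at E9.5 and E10.5. The libraries titled Tbx1null, called null here, comprised 1 at E9.5 and 2 at E10.5 from the matching tissues. Their genotype label reads Wnt1-Cre/+;Tbx1+/-;ROSA-EGFPf/+, which does not match the title. The study's own sample list gives these embryos as Tbx1-/-, as the title does, and the name of the title is kept. Each library came from pooled embryos, and the labels name no separate litters, so p-values measure the spread between libraries only. The 10x kit also differed between groups. It was version 3.1 in the controls of E9.5 and E10.5 and in null E10.5 replicate 2, version 3 in the other 2 null libraries and version 2 at E8.5, and its part in the differences was not tested.

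The Zic genes encode zinc-finger transcription factors whose zinc fingers resemble those of the Gli factors, the effectors of Hedgehog signaling. In vertebrate embryos they are known for expression in the dorsal neural tube, the roof plate and the neural plate border, from which the neural crest arises, and loss of ZIC2 function is a known cause of holoprosencephaly. Wnt1-Cre is active in the dorsal midbrain and hindbrain and in the neural crest, so the sorted cells include neural tube cells beside the migrating crest.

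The 4 genes lie in 2 pairs on mm10 (GRCm38, GENCODE annotation). Zic1 (ENSMUSG00000032368, minus strand, chr9:91358058-91365810) and Zic4 (ENSMUSG00000036972, plus strand, chr9:91362413-91389348) point away from each other and share 3398 bases on opposite strands. Zic5 (ENSMUSG00000041703, minus strand, chr14:122456795-122465677) and Zic2 (ENSMUSG00000061524, plus strand, chr14:122475435-122479852) also point away from each other, with 9758 bases between their annotated starts. The noncoding gene 2610035F20Rik starts 236 bases from the start of Zic2 on the opposite strand. Whether the counting used strand is not given in the sources used here, so in the bases that Zic1 and Zic4 share, reads of the pair could be told apart only by strand. The shared bases lie at the start of both genes, whereas these libraries read 3′ tags.

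Because the 4 genes moved together across cell classes, the 250 bases before the RefSeq start of each are shown where the RefSeq promoter table (GRCm38.p6) holds them, which was the case for 3 of the 4 members. They were searched on both strands for the TATA box TATAAA, the CCAAT box, the GC box GGGCGG, the TCF and LEF site core CTTTGA, the homeodomain core TAATTA and GGGNGGTC (a form of the Gli and Zic site), and matches are in capitals. The windows are chr9:91365769-91366018 on the minus strand for Zic1, chr9:91368722-91368971 on the plus strand for Zic4 and chr14:122465659-122465908 on the minus strand for Zic5. The Zic4 window lies inside the gene's annotated span, before a downstream start.
Zic1: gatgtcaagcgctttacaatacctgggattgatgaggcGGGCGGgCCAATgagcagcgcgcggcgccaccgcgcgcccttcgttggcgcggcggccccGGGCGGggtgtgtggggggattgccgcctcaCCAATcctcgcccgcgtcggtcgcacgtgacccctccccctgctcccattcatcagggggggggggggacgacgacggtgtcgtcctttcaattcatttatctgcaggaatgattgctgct
Zic4: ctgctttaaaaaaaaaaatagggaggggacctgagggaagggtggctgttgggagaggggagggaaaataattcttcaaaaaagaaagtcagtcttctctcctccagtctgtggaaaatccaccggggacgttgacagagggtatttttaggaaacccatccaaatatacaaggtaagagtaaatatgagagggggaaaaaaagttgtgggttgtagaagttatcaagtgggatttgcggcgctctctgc
Zic5: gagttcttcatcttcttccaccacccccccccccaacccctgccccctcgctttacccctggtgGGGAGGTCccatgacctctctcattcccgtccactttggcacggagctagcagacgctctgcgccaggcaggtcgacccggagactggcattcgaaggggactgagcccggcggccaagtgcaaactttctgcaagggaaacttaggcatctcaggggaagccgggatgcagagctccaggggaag
The Zic1 window held 2 CCAAT and 2 GGGCGG matches, the Zic5 window 1 GGGNGGTC match and the Zic4 window none of the 6 motifs. Of the 32851 windows of the same length in the table, 33.8% held CCAAT, 32.7% GGGCGG and 3.59% GGGNGGTC, so the first 2 are common. GC content was 66% for Zic1, 44.4% for Zic4 and 62.4% for Zic5, against a median of 52.4% over all windows.

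Each library held 5987 to 12047 barcodes and 140264662 to 234844769 UMIs, and 5587 to 9557 cells per library passed the filters. Kept cells were placed by their UMIs, in this order, into roof plate cells (Rspo1 and Rspo3 at 1 or more), Sox10 cells (Sox10 at 2 or more), neural cells (Sox2 at 1 or more, Twist1 at 0) and mesenchymal cells (Twist1 and Prrx1 or Prrx2 at 1 or more, Sox2 at 0), and UMIs were summed per class and library. Neural cells numbered 974 to 3294 per library, mesenchymal cells 650 to 5619, Sox10 cells 204 to 2008 and roof plate cells 267 to 489, with 45 at E8.5. Libraries shared at most 27 kept barcodes. Tbx1, the targeted gene, stood at 5.19 and 3.797 CPM (the usual unit in which UMIs of a gene are scaled to the same total in each sum) in the whole E10.5 control libraries and at 2.97 and 2.67 in the nulls. In neural cells it was at 1.84 and 1.45 CPM in the controls and at 0.0183 and 0.190 in the nulls, while in mesenchymal cells it was at 8.02 and 4.63 against 8.06 and 11.2. The deleted part of Tbx1 is not named in the labels and these are 3′ tags, so the values are no check of the labels.

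Neural and roof plate cells carried the Zic transcripts, and Sox10 and mesenchymal cells held few of them. Zic1, known for its part in cerebellar and dorsal neural development, was at 158 CPM in neural cells of the E9.5 control library and at 157 CPM in the E9.5 null. At E10.5 it was at 273 and 235 CPM in the controls and at 315 and 279 CPM in the nulls. In mesenchymal cells of the same 6 libraries it ranged from 0.813 to 15.3 CPM, and in Sox10 cells from 1.47 to 17.2 CPM, so no library of either class came near the lowest neural value. Zic4, its neighbour on chromosome 9, was at 23.0 to 76.5 CPM in neural cells and at no more than 4.90 in mesenchymal and 4.43 in Sox10 cells.

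Zic2, the gene tied to holoprosencephaly, was at 62.9 and 56.1 CPM in neural cells at E9.5, at 108 and 67.0 in the E10.5 controls and at 74.0 and 102 in the E10.5 nulls. Zic5, which lies beside it, was at 79.7 and 75.0, then at 139 and 110 in the controls and 123 and 116 in the nulls. In mesenchymal cells Zic2 stayed between 0.523 and 5.38 CPM and Zic5 between 0.781 and 6.38. Over the 6 libraries of E9.5 and E10.5 the mean level of Zic1 was 236 ± 66.1 CPM in neural cells, 224 ± 75.5 in roof plate cells, 4.80 ± 6.12 in Sox10 cells and 4.88 ± 5.84 in mesenchymal cells (SD, n = 6). Neural and roof plate cells, and likewise Sox10 and mesenchymal cells, were thus neighbours whose ranges overlapped, with a wide gap between the pairs.

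**Figure D1:**
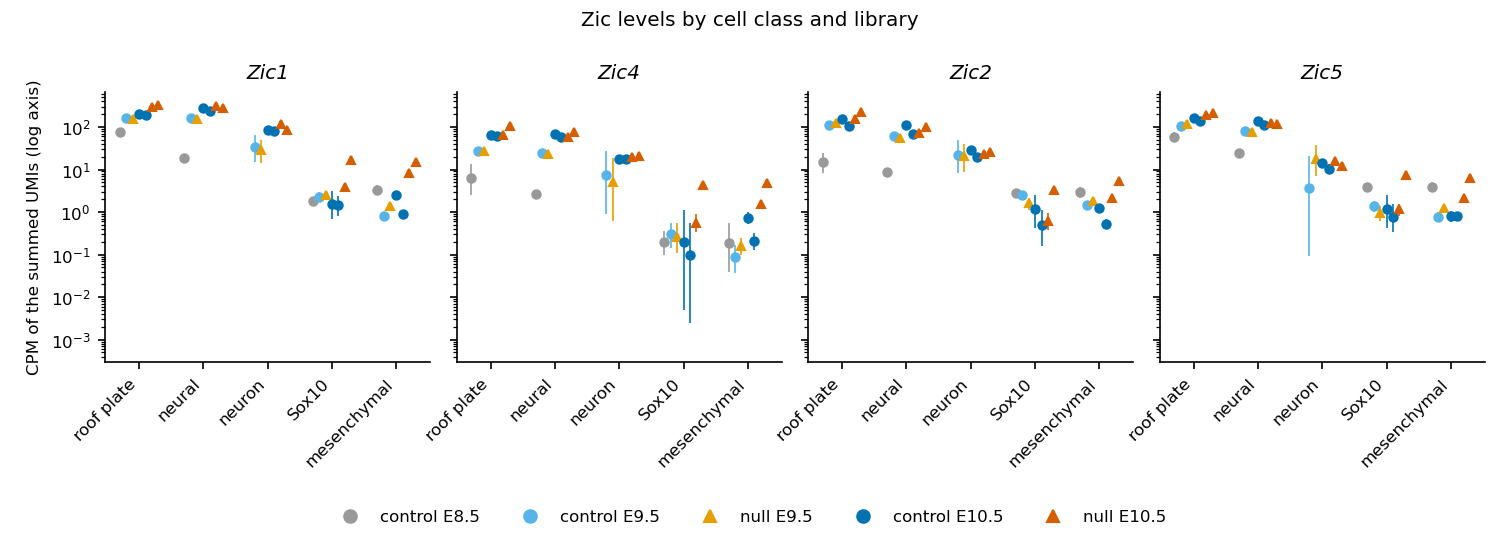
Zic1, Zic4, Zic2 and Zic5 in 5 cell classes. The y axis is CPM of the summed UMIs on a log axis, each point is 1 library with its 95% Poisson interval, and circles are control and triangles null libraries. Roof plate and neural cells lie above 20 CPM for every gene at E9.5 and E10.5, Sox10 and mesenchymal cells below 20 CPM, and neurons are plotted for comparison, at 28.2 to 117 CPM for Zic1.

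The class differences were tested within libraries with edgeR's quasi-likelihood test on the 6 libraries of E9.5 and E10.5. In mesenchymal cells all 4 genes were lower than in neural cells, Zic1 by a log2 fold change of -6.29 ± 0.54 (SE, adjusted p = 4.34e-05), Zic4 by -6.14 ± 0.55, Zic2 by -5.38 ± 0.37 and Zic5 by -6.06 ± 0.42. Of all genes tested there, 52.8% were called, 24.3% as lower and 28.6% as higher in mesenchymal cells, and the median over all genes was 0.05. The study itself identified its neural tube cells by Zic1, Zic2 and other neural markers. It used Sox10, with Foxd3, as a marker of early migratory crest. Of the Sox10 cells, 57.5% and 57.8% carried a Twist1 UMI at E9.5 and 6.67% to 21.8% at E10.5. Their log2 fold changes against neural cells were -5.79 ± 0.40 for Zic1, -5.77 ± 0.42 for Zic4, -5.43 ± 0.31 for Zic2 and -5.71 ± 0.39 for Zic5 (adjusted p from 4.81e-06 to 1.32e-05). There 53.6% of all genes were called, 25.6% as lower and 28% as higher. Of the dorsal neural tube list (12 genes), 11 of 12 tested were lower in mesenchymal and 11 of 11 in Sox10 cells. The largest differences were those of Atoh1 (-7.34 ± 0.65), which marks rhombic lip progenitors, and Msx3 (-7.33 ± 0.53) in mesenchymal cells, and of Olig3 (-6.42 ± 0.52) and Wnt3a (-6.21 ± 0.38) in Sox10 cells. Of 11 Gli and Hedgehog genes, 6 were higher and 3 lower in mesenchymal cells, and 4 higher and 5 lower in Sox10 cells. The list ran from -2.37 to 3.08 in mesenchymal and from -3.45 to 2.24 in Sox10 cells. Gli1, a transcriptional target of Hedgehog signaling, had the highest value in both (3.08 ± 0.54 and 2.24 ± 0.43).

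Between roof plate and neural cells, the Zic2 and Zic5 pair was higher in the roof plate gate while Zic1 and Zic4 did not pass the test. Zic2 was at 111 and 121 CPM in roof plate cells at E9.5, at 157 and 106 in the E10.5 controls and at 151 and 226 in the nulls, above the neural value of the same library in all 6. The log2 fold change was 0.85 ± 0.08 for Zic2 (adjusted p = 6.62e-05) and 0.47 ± 0.08 for Zic5 (adjusted p = 0.00108), where 51% of genes were called, 24.9% as higher and 26.1% as lower. Zic1 differed by -0.13 ± 0.07 (adjusted p = 0.155) and Zic4 by 0.13 ± 0.06 (adjusted p = 0.114). Between 43.9% and 52.9% of the roof plate gate carried a Twist1 UMI in these libraries, and the 4 mesenchyme markers (Pdgfra, Pdgfrb, Col3a1, Twist2) summed to 177 and 195 CPM in the E10.5 controls against 42.9 and 73.5 in the nulls, with none of the 4 at 0 in those libraries. In roof plate cells without a Twist1 UMI, a choice made after the data were seen, Zic4 passed the test (0.35 ± 0.09, adjusted p = 0.00987, beside 21.6% of genes called as higher) and Zic1 turned positive (0.13, adjusted p = 0.0736). Zic4 also passed with stricter gates (0.32, adjusted p = 0.00849, beside 23% of genes called as higher) and with every cell thinned to 5000 UMIs (0.38, adjusted p = 0.00447, beside 18.4%), and it was at -0.0077 (adjusted p = 0.939) with all barcodes. Thinning came before the gates, so it changed the cells of each class as well as their depth. The roof plate gate of control E10.5 replicate 1 then held 120 cells instead of 267. With the thinned cells, Zic1 was higher in the roof plate gate (0.22, adjusted p = 0.00889), whereas it was lower with all barcodes (-0.24, adjusted p = 0.0169, beside 25.7% of genes as lower) or without null replicate 2 (-0.19, adjusted p = 0.0469, beside 20.7%), so the direction of Zic1 depended on these choices. Gdf7 and Lmx1a, defining genes of the roof plate, were higher by 5.68 ± 0.53 and 4.77 ± 0.31, and 7 of 12 dorsal neural tube genes were higher and 5 lower.

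Within neural cells all 4 genes were higher in cells with a UMI of Pax3, the paired-box factor of the dorsal neural tube. Zic1 was at 296 against 154 CPM in control E10.5 replicate 1, 287 against 145 in replicate 2, 343 against 189 in null replicate 1 and 313 against 156 in null replicate 2. At E9.5 it was at 169 against 117 CPM in the control and 171 against 122 in the null, and at E8.5 at 40.7 (95% Poisson interval 37.2 to 44.4) against 8.50 (7.44 to 9.66). Cells with Pax3 were thus the higher part in each of the 7 libraries, for Zic1 and also for Zic2, Zic4 and Zic5. The log2 fold changes over 6 libraries were 0.80 ± 0.08 for Zic1 (adjusted p = 0.000191), 0.72 ± 0.10 for Zic4 (adjusted p = 0.00115), 0.57 ± 0.10 for Zic2 (adjusted p = 0.00291) and 0.81 ± 0.09 for Zic5 (adjusted p = 0.00035). Of all genes tested 41% were called, 20.5% as higher and 20.5% as lower. Cells with a Pax3 UMI were also deeper, with medians of 10540 to 16754 UMIs at E9.5 and E10.5 against 8697 to 14080. With each cell thinned to 5000 UMIs before the split the 4 genes stayed called at 0.30 to 0.48. In the same split 5 of 11 dorsal neural tube genes were higher, Pax3 itself among them, and 2 lower. Pax7, the paralog of Pax3, was higher (0.64 ± 0.13), Atoh1 (-2.13 ± 0.18) and Lmx1a (-1.02 ± 0.22) were lower, and 6 of 11 Gli and Hedgehog genes were higher, among them the Hedgehog co-receptors Boc (0.92 ± 0.13) and Gas1 (0.89 ± 0.12).

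**Figure D2:**
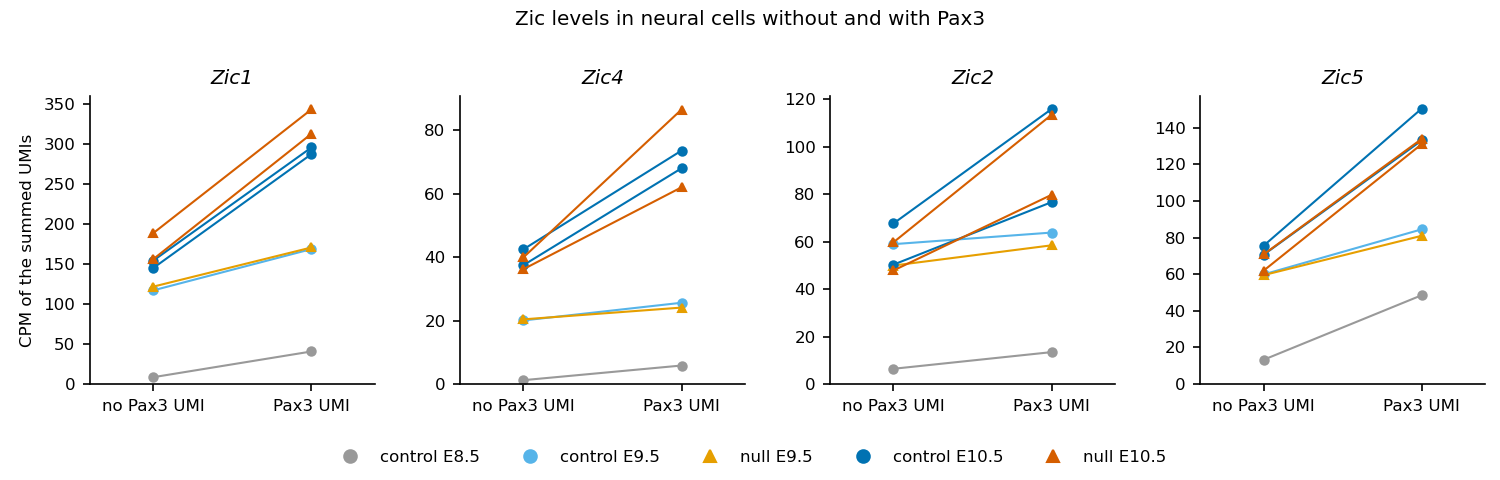
Zic levels in neural cells without and with a Pax3 UMI. The y axis is CPM of the summed UMIs, each line joins the 2 parts of 1 library, and colors give the group. Every line rises from left to right for all 4 genes, from 8.50 to 40.7 CPM for Zic1 at E8.5 and from 154 to 296 CPM in control E10.5 replicate 1.

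Position along the neural tube also went with the levels at the early stages. At E8.5, where 1 library gives no test, Zic1 was at 65.6 CPM (55.7 to 76.9) in the 116 neural cells with a UMI of Hoxa2, Hoxb2, Hoxa3 or Hoxb3, the Hox genes of the hindbrain, and at 15.4 CPM (14.2 to 16.7) in the 1839 cells without. Zic5 was at 53.7 CPM (44.7 to 63.9) against 22.2 (20.8 to 23.8), and Zic2 at 17.9 (12.9 to 24.2) against 7.995 (7.11 to 8.96). Cells with Nkx6-1, a homeodomain factor of the ventral neural tube, held 3.51 CPM (2.37 to 5.01) of Zic1 against 22.5 (20.9 to 24.2) in the other neural cells, and 4.80 (3.44 to 6.51) against 29.4 (27.5 to 31.4) of Zic5. The 41 cells with Olig3, a factor of dorsal progenitors, stood at 89.1 CPM of Zic1 (70.1 to 112) against 16.9 (15.6 to 18.2). The intervals of these pairs of values did not overlap, and they cover counting error only.

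At E9.5 the Hox split of Zic1 was 173 against 80.4 CPM in the control and 165 against 84.5 in the null library. At E10.5 only 46 to 75 neural cells per library lacked those Hox genes, and Zic1 was at 273 against 275 and 237 against 175 CPM in the controls and at 316 against 269 and 280 against 259 in the nulls. It was higher with those Hox genes in 3 of these 4 libraries. Olig3-positive neural cells held more Zic2 than Olig3-negative ones in each library, for example 113 against 78.2 CPM in control E10.5 replicate 1. Cells with Atoh1, the rhombic lip factor, held less Zic1 than the rest in each of the 6 libraries, by 193 against 312 CPM and 171 against 267 in the E10.5 controls, 229 against 362 and 227 against 314 in the nulls, and 141 against 164 and 142 against 162 at E9.5.

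From E9.5 to E10.5 Zic4 rose in neural and in roof plate cells. In neural cells it went from 24.5 CPM (control) and 23.0 (null) to 68.6 and 56.7 in the controls and 57.3 and 76.5 in the nulls. The log2 fold change was 1.13 ± 0.19 (adjusted p = 0.00934, 11.7% of genes called, 6.98% as higher and 4.7% as lower), a 2.19-fold rise in the fit. The fit used TMM scaling between the sums, which the CPM values lack, so its fold differs from the ratio of the CPM. In roof plate cells Zic4 was at 26.6 CPM in both E9.5 libraries and at 65.2, 61.1, 66.4 and 105.1 at E10.5 (1.16 ± 0.22, adjusted p = 0.00897, 10.3% of genes called, 5.91% as higher and 4.43% as lower). Without the E9.5 control library the neural value was 1.16 (adjusted p = 0.164) and without the E9.5 null library 1.10 (adjusted p = 0.163), and the roof plate values were 1.32 (adjusted p = 0.0776) and 0.99 (adjusted p = 0.132), so the call needed both E9.5 libraries. With the control libraries alone the neural value was 1.10 log2 (adjusted p = 0.0569).

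The other 3 genes did not pass the test in neural cells, where Zic1 changed by 0.49 ± 0.17 (adjusted p = 0.0970), Zic5 by 0.34 ± 0.17 (adjusted p = 0.204) and Zic2 by 0.25 ± 0.23 (adjusted p = 0.479). In roof plate cells without a Twist1 UMI Zic1 passed at 0.64 (adjusted p = 0.0427, beside 5.27% of genes called as higher) where the whole gate gave 0.37 ± 0.19 (adjusted p = 0.230). The dissected tissue differed between the stages, and the effect of stage cannot be told apart from that of tissue. At E8.5 all 4 genes were low in neural cells, at 18.4 CPM (17.1 to 19.8) for Zic1, 24.1 (22.6 to 25.7) for Zic5, 8.58 (7.69 to 9.54) for Zic2 and 2.63 (2.14 to 3.18) for Zic4. Of the 12 dorsal neural tube genes Atoh1 rose between E9.5 and E10.5 in neural cells (1.08 ± 0.18) and none fell. Of all genes there, 6.98% were called as higher and 4.7% as lower. In roof plate cells Bmp6 rose (1.28 ± 0.28) and 4 fell, among them Msx3 (-2.67 ± 0.29) and Olig3 (-2.40 ± 0.26), beside 5.91% and 4.43% of all genes. No Gli or Hedgehog gene was called in either class, where 11.7% and 10.3% of all genes were called. For lists this small, 1 gene or none called is close to those shares.

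**Figure D3:**
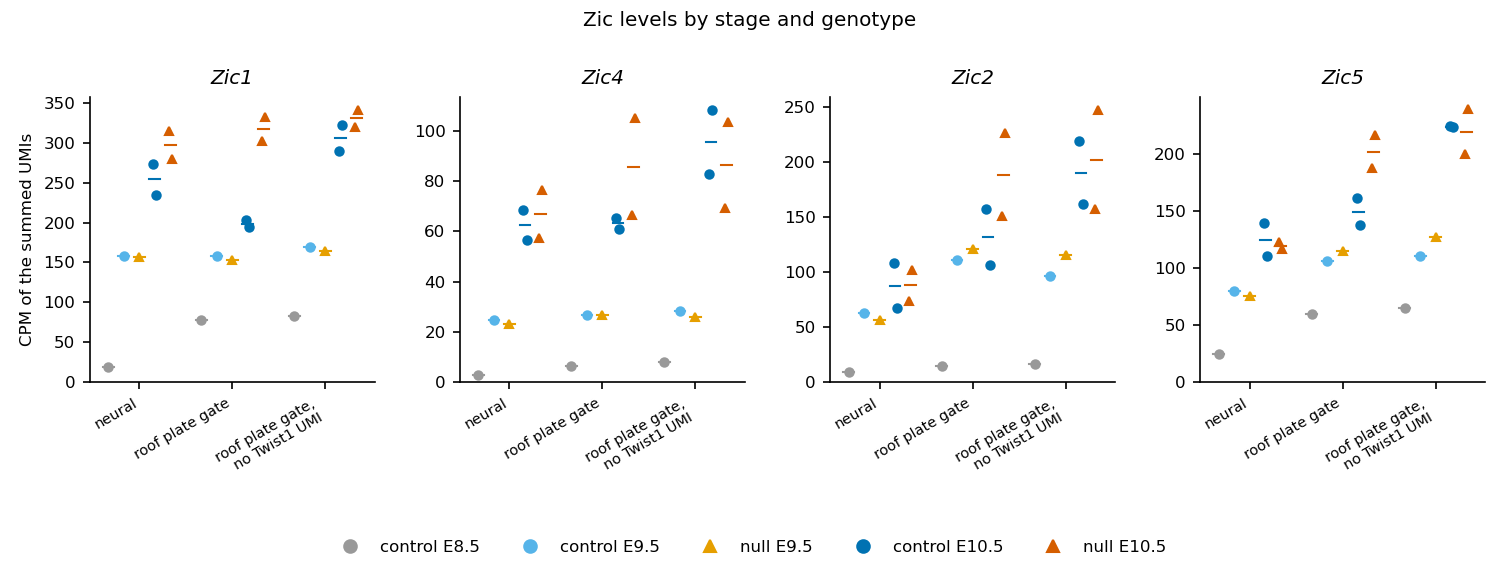
Zic levels by stage and genotype in neural cells, in the roof plate gate and in the part of that gate without a Twist1 UMI. The y axis is CPM of the summed UMIs, each point is 1 library, bars are group means, and groups run from left to right as control E8.5, control E9.5, null E9.5, control E10.5 and null E10.5. Zic4 in neural cells lies at 24.5 and 23.0 CPM at E9.5 and at 56.7 to 76.5 at E10.5.

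In neural cells no difference of the Zic genes between null and control was detectable at E10.5. The ranges of control and null libraries overlapped for Zic2, Zic4 and Zic5, while both null libraries lay above both controls for Zic1. The share of all genes with a split like that of Zic1 was not counted. The log2 fold changes of null over control were 0.15 ± 0.21 for Zic1 (adjusted p = 0.910), 0.01 ± 0.23 for Zic4, -0.08 ± 0.29 for Zic2 and -0.13 ± 0.22 for Zic5 (adjusted p = 0.923 or higher for these 3). No gene of 14730 was called by edgeR in this comparison (0%), where 842 had an unadjusted p under 0.05 and DESeq2 called 48 genes, none of them a Zic member. At E9.5, with 1 library each, the ratio of null to control was 0.991 for Zic1, 0.941 for Zic4, 0.892 for Zic2 and 0.942 for Zic5. None of 11 tested dorsal neural tube genes was called at E10.5. Leaving out 1 library at a time moved Zic2 between -0.44 and 0.33, positive without control replicate 1 or null replicate 1, and Zic1 between -0.01 (without control replicate 2) and 0.28.

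In the roof plate gate all 4 genes had higher means in the E10.5 nulls, but none passed the test. Zic1 was at 203 and 195 CPM in the controls and at 302 and 332 in the nulls, with a log2 fold change of 0.56 ± 0.22 (adjusted p = 0.325). Zic2 gave 0.40 ± 0.26, Zic5 0.32 ± 0.22 and Zic4 0.32 ± 0.25 (adjusted p = 0.572 to 0.631), where 0.862% of genes were called, 0.0976% as higher and 0.764% as lower. Without null replicate 1, Zic2 passed the test at 0.68 (adjusted p = 0.0456) beside 3.36% of genes called as higher, and without null replicate 2 it was at 0.12. In the part of the gate without a Twist1 UMI, Zic1 was at 290.2 and 322 CPM in the controls and at 319.9 and 341 in the nulls, and the genotype difference of Zic4 and Zic5 turned to -0.22 and -0.10. The differences of Zic2, Zic4 and Zic5 also turned negative with thinning, and those of Zic4 and Zic5 with stricter gates. In the part with a Twist1 UMI, Zic1 was at 135 and 113 CPM in the controls and 287 and 321 in the nulls. The groups were further apart in the cells with Twist1 than in those without. Mesenchyme markers in the cells with Twist1 summed to 304 and 300 CPM in controls and to 67.6 and 142 in nulls. The split was chosen after the data were seen, and the part of mesenchyme-like cells in the genotype difference was not tested. Snai2, an epithelial-to-mesenchymal transition factor, was the only gene of the neural plate border list called in the whole gate (-1.64 ± 0.34, adjusted p = 0.0467). At E9.5 the ratio of null to control in the gate was 0.968 for Zic1, 1.00 for Zic4, 1.09 for Zic2 and 1.08 for Zic5.

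In mesenchymal cells the low Zic counts were higher in both E10.5 nulls than in both controls. Zic1 was at 2.53 and 0.905 CPM in the controls and at 8.38 and 15.3 in the nulls, Zic5 at 0.809 and 0.805 against 2.13 and 6.38, Zic2 at 1.21 and 0.523 against 2.09 and 5.38, and Zic4 at 0.724 and 0.211 against 1.57 and 4.90. Null replicate 2 was the highest library for each of the 4. The groups did not overlap for any of them, but the 4 values come from the same libraries. How many of all genes showed such a split was not counted. The log2 fold changes were 2.63 ± 0.50 for Zic1 (adjusted p = 0.228), 2.62 ± 0.71 for Zic4 (adjusted p = 0.310), 1.92 ± 0.56 for Zic2 (adjusted p = 0.325) and 2.19 ± 0.50 for Zic5 (adjusted p = 0.260), and 0.0399% of genes were called, each of them lower in the nulls. None passed edgeR's test, while DESeq2 called all 4 (adjusted p = 1.29e-05 for Zic1 to 0.0456 for Zic2) where it called 1.29% of genes as higher. Run without a filter on low counts, edgeR called all 4 as well, beside 1.91% of genes as higher. The edgeR call also turned on single libraries. Without null replicate 1 all 4 were called (2.46 to 3.25), in a fit that called 5.68% of all genes as higher. Without null replicate 2 Zic1 (2.28) and Zic5 (1.35) were called beside 3.52% of genes, without control replicate 1 Zic1 (3.52) and Zic4 (3.71) beside 0.154%, and without control replicate 2 none of the members. With the replicate numbers as a block Zic1 (2.74, adjusted p = 0.0147) and Zic5 (2.06, adjusted p = 0.0488) were called beside 0.519% of genes as higher. At E9.5, with 1 library each, the ratio of null to control was 1.71 for Zic1, 1.85 for Zic4, 1.26 for Zic2 and 1.58 for Zic5.

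For comparison, for each library the mesenchymal level was set as a percentage of the neural level, for the Zic members and for those of 10 genes of neural progenitors (among them Sox1, Sox3 and Pax6) that had at least 100 neural UMIs. The median of the reference genes was 0.370% and 0.361% in the E10.5 controls, 1.39% in null replicate 1 and 4.25% in null replicate 2. Zic members were at 0.372% to 1.12% in the controls, 1.74% to 2.82% in null replicate 1 and 5.27% to 6.41% in null replicate 2. The members and the reference genes thus went up together in the nulls. In every E10.5 library the members lay above the reference median and below the highest reference gene. The highest reference gene differed between libraries. It was Sox3 at 1.72% and Pax6 at 1.18% in the controls, Lmx1a at 15.5% in null replicate 1 and Neurog2 at 7.55% in null replicate 2. Lmx1a, with 157 neural UMIs in null replicate 1, had fewer than 100 in each other E10.5 library. The next highest gene in null replicate 1 was Pax6 at 4.89%. Over the reference genes tested in this comparison, the median log2 fold change was 2.755 against 0.000686 over all genes, 8 of 10 being tested and none called. The 3 neuron markers (Tubb3, Dcx, Nefl) summed to 318 CPM in mesenchymal cells of null replicate 2 and to 23.8 to 37.6 in the other 3 E10.5 libraries, and the 4 hemoglobin genes to 6.14 against at most 0.694 in the other libraries. The part of neural RNA from outside the cells in these counts was not tested. A change in transcripts per cell and one in the cells holding them cannot be told apart in the sums. Per cell, thinned to 5000 UMIs, any of the 4 genes was seen in 1.66% and 1.05% of mesenchymal cells in the E10.5 controls. In the nulls it was 4.33% and 12.3%, with 3.26% and 10.3% holding only 1 of the 4.

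**Figure D4:**
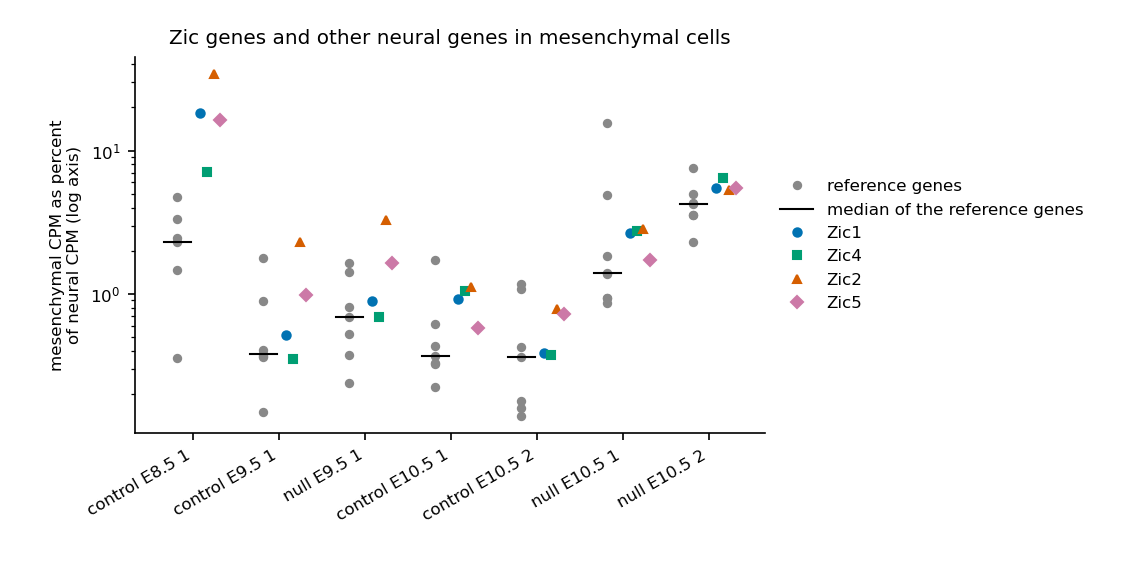
Mesenchymal CPM as a percentage of neural CPM in each library, on a log axis. Grey points are neural reference genes with at least 100 neural UMIs and a count above 0, black lines their medians, and colored symbols the Zic genes. In E10.5 libraries both sets are lowest in the controls (medians 0.370% and 0.361%) and highest in null replicate 2 (4.25%), and at E8.5 the Zic genes lie at 7.13% to 34.2%.

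In mesenchymal cells of the E9.5 control and null libraries Zic2 stood at 2.31% and 3.27% of the neural level. That was above the highest reference gene with at least 100 neural UMIs (1.79% and 1.65%). Zic4, at 0.349% and 0.688%, lay below the reference medians of 0.382% and 0.695%. Of the list genes below that cut, Lmx1a (67 and 66 neural UMIs) stood at 6.20% and 13.7%, Dbx2 at 2.28% and 5.37% and Dbx1 at 0. Zic1 was at 0.513% and 0.887% and Zic5 at 0.980% and 1.64%. At E8.5 all 4 members lay above the highest reference gene with at least 100 neural UMIs. In mesenchymal cells Zic1 stood at 18.3%, Zic5 at 16.3%, Zic2 at 34.2% and Zic4 at 7.13% of the neural level. The reference median was 2.30% and the highest 4.71%. Of the list genes below that cut, Lmx1a (99 neural UMIs) stood at 57.4%, above all members. Olig3 (80) was at 15.4%, above Zic4, and Dbx2 (52) at 4.75%. The counts behind the members were 54 UMIs of Zic1, 63 of Zic5, 47 of Zic2 and 3 of Zic4. The sum of the 37 mesenchymal cells with a Hoxa2 UMI held 29.3 CPM of Zic1, 22.5 of Zic5 and 13.5 of Zic2, and that of the 613 without it 1.85, 2.84 and 2.31. The intervals of Zic1 were 19.1 to 42.9 and 1.23 to 2.67 CPM. No replicate exists at E8.5, and the Sox10 crest markers summed to 171 CPM in this class against 24.9 to 47.6 at the later stages.

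In Sox10 cells the Zic counts were few, and the control and null libraries of E10.5 overlapped for Zic2 and Zic5 but not for Zic1 and Zic4. The share of all genes without such an overlap was not counted. Zic1 was at 1.57 and 1.47 CPM in the E10.5 controls, 8 and 15 UMIs, and at 3.83 and 17.2 CPM in the nulls, 129 and 384 UMIs. Zic2 was at 1.18 and 0.489 CPM in the controls and 0.623 and 3.31 in the nulls, and Zic5 at 1.18 and 0.783 against 1.16 and 7.47. The log2 fold change of Zic1 was 2.74 ± 0.67 (adjusted p = 0.368), that of Zic5 2.13 ± 0.84 (adjusted p = 0.488) and that of Zic2 1.28 ± 0.85 (adjusted p = 0.628), where 0.0154% of genes were called, 0.0077% as higher and 0.0077% as lower. Zic4, with 1 UMI in each control library and 19 and 99 UMIs in the nulls, did not pass the filter on low counts and was not tested. Without null replicate 2 the values were 1.32 for Zic1, 0.28 for Zic5 and -0.29 for Zic2, and Zic1 was called when any of the other 3 libraries was left out (2.64 to 3.45, beside 0.237% to 0.883% of genes called as higher) or with the replicate numbers as a block (2.67, adjusted p = 0.00201, beside 1.52%). Zic5 was called without null replicate 1 (2.94, adjusted p = 0.0164). The neuron markers summed to 522 CPM in null replicate 2 and to 125 to 203 CPM in the other 3. The neural progenitor reference genes had a median log2 fold change of 1.43 over the 7 of 10 tested and the dorsal neural tube genes one of 1.48 over the 8 of 12 tested, against 0.0174 over all genes, with none called in either list. The part of neural RNA from outside the cells was not tested here either. DESeq2 called Zic1 (adjusted p = 0.0128), beside 0.293% of genes as higher. Run without the filter on low counts, edgeR called Zic1 and Zic5, beside 1% of genes as higher. At E9.5, with 1 library each, the ratio of null to control in Sox10 cells was 1.07 for Zic1, 0.873 for Zic4, 0.631 for Zic2 and 0.693 for Zic5, so it was below 1 for 3 of the 4 genes.

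Cell by cell, most neural cells at E9.5 and E10.5 held a UMI of at least 1 Zic gene when thinned to 5000 UMIs. The share with any of the 4 was 73.1% in the E9.5 control and 71.8% in the E9.5 null, 87.3% and 77.0% in the E10.5 controls and 87.6% and 85.0% in the E10.5 nulls, against 18.9% at E8.5. Zic1 was detected in 50.1% and 49.8% of neural cells at E9.5 and in 59.4% to 73.2% at E10.5, against 0.271% to 7.21% of mesenchymal cells of the same libraries thinned to the same depth, the class in which few Zic transcripts were found. Before thinning, median depths were 9580.5 to 16029 UMIs in neural and 16813 to 25252 in mesenchymal cells, and the Zic1 shares 75.0% to 91.7% and 1.01% to 22.1%. Thinning left out 16 to 90 neural cells per library at these stages. All 4 genes together were seen in 0.604% and 0.556% of neural cells at E9.5 and in 3.61% to 5.58% at E10.5. In the roof plate gate the share with all 4 was 2.41% and 1.96% at E9.5 and 10.5% to 13.96% at E10.5, and the share with none 25.4% and 31.4% in the E10.5 controls and 9.30% and 8.77% in the nulls.

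**Figure D5:**
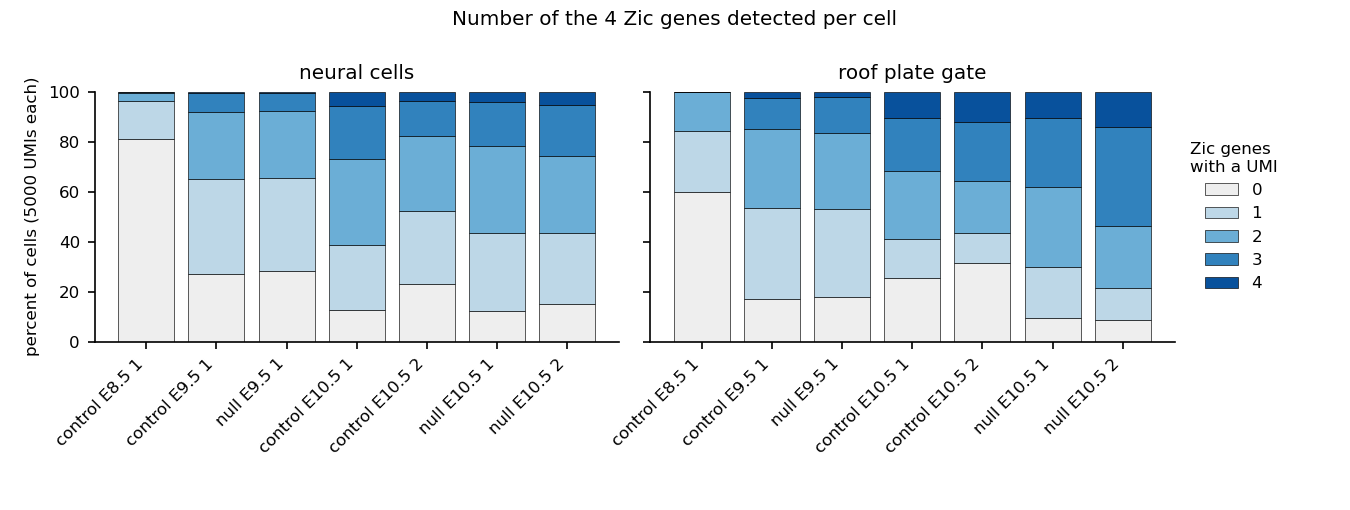
Share of cells with a UMI of 0, 1, 2, 3 or 4 of the Zic genes, after thinning each cell to 5000 UMIs. Bars are libraries, the y axis is percent of cells, and darker blue stands for more genes. Neural cells with none make up 81.1% at E8.5, 26.9% and 28.2% at E9.5 and 12.4% to 23.0% at E10.5.

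Co-detection within neural cells was close to what the separate shares give. Cells with both Zic1 and Zic4, the pair on chromosome 9, were 1.06 to 1.28 times as many as the product of the shares in the 6 libraries of E9.5 and E10.5. For Zic2 and Zic5, the pair on chromosome 14, the ratio was 1.10 to 1.28. Of the 4 pairs from different chromosomes, Zic1 with Zic2 was at 1.04 to 1.23, Zic1 with Zic5 at 1.07 to 1.21, Zic4 with Zic2 at 1.10 to 1.22 and Zic4 with Zic5 at 0.949 to 1.30, and differences between pairs were not tested. In the roof plate gate of the E10.5 controls the ratios were higher, at 1.46 and 1.55 for Zic1 with Zic4 against 1.10 and 1.13 in the nulls. The cells in that gate also differed. A Sox2 UMI was carried by 64.4% and 52.9% of them in the controls and by 88.8% and 87.7% in the nulls. Before thinning, 22.1% and 28.6% held no Zic UMI in the controls, against 3.68% and 3.23% in the nulls. The part of this mix of cells in the ratios was not tested. In mesenchymal cells of the E10.5 nulls, Zic1 and Zic4 were seen together in 11 of 2055 cells of replicate 1, 21.7 times the product of the shares, and in 7 of 916 cells of replicate 2, 4.22 times. These ratios are descriptions of cells within 1 library each, which are not replicates.

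Likeness to each member was taken over the 28 sums of 4 classes in 7 libraries. The 5 most alike genes are given, with the genes used for the class and neuron gates left out. For Zic1 they were Zic4 (Pearson r of log2(CPM + 1) 0.983), Zic5 (0.983), the Wnt receptor gene Fzd10 (0.979), the FGF receptor gene Fgfr3 (0.975) and Rfx4 (0.974), and for Zic4 they were Zic1, Fgfr3 (0.983), Plekha6 (0.981), Fzd10 (0.980) and Ly6h (0.979). For Zic2 the most alike was the annotated gene ENSMUSG00000115263 (Gm5089, chr14:122365239-122406743, minus strand), with r = 0.988, followed by Zic5 (0.981), Ly6h (0.977), Fn3k (0.972) and Wnt4 (0.971). That gene starts 58934 bases beyond the start of Zic5 and is not part of either coding gene. It was at 20.7 to 41.4 CPM in neural and 52.3 to 127 CPM in roof plate cells of the 6 libraries, and at most 1.90 CPM in mesenchymal cells. For Zic5 the list was Wnt1 (0.985), Zic1 (0.983), Zic2 (0.981), Rfx4 (0.981) and Wnt3a (0.980). These correlations were taken with 11661 genes, each over the 28 sums. The sums share libraries and the contrast between classes, so the correlations carry no p-value.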

How the data were processed

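Dissociated EGFP-positive, DAPI-negative cells were sorted and profiled by 10x 3′ single-cell RNA-seq. The authors aligned reads with Cell Ranger 6.0.1 to mm10, and the deposited values are raw UMI counts per gene and cell, without normalization. From these counts, barcodes with fewer than 1000 detected genes or above 10% mitochondrial UMIs were dropped, and the highest Scrublet scores (Scanpy 1.11.5) were removed as doublets, 0.8% of barcodes per 1000 barcodes. Kept cells held 128294715 to 198251325 UMIs per library. Counts were summed per class and library (at least 20 cells) and given as CPM with 95% exact Poisson intervals, and shares as percent of cells, both covering counting error only.

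Sums were tested with edgeR 4.0.16 (quasi-likelihood, TMM, filterByExpr, R 4.3.3) and Benjamini-Hochberg adjustment over all genes, with 0.05 as the threshold, and the standard error was taken as the absolute log2 fold change over the square root of F. Class and Pax3 comparisons had the library as a block and stage comparisons a genotype term. The CPM values were not scaled by TMM, so their ratios can differ from the fold changes of the fits. The procedure was also run on simulated counts with the same dispersion for every gene and no differences between libraries other than depth. That run does not show how the tests perform at the spread of these libraries. DESeq2 1.42.0, other scalings, filters, gates and depths and left-out libraries were alternatives. For sums, thinned cells were gated again on the thinned counts, whereas the shares of cells kept the original classes. The fits with 1 library per group at E8.5 and E9.5 were not run. The members and lists were chosen with earlier results of these data known. The genes named were the members, up to 4 list genes with the largest called log2 fold changes per list and the 5 genes most like each member. The noncoding gene near Zic2 was named for its position. A result on 1 further gene is not reported here.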

Additional observations from a re-analysis of the deposited data

How the results depend on the processing

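The differences of the Zic genes between neural cells and Sox10 or mesenchymal cells, the Pax3 split and the roof plate differences of Zic2 and Zic5 kept their direction and their side of the threshold under each alternative run. Genotype tests compare 2 libraries with 2, and a lone library left in an arm is assumed to vary like the others. Where all null libraries lay above all controls, the share of all genes with such a split was not counted. Causes of the changes below were not tested. Zic4 gave no genotype value in Sox10 cells. Of the CPM levels, 57 of 108 moved past their spread or interval with thinning, 37 of 112 with all barcodes and 34 of 108 with stricter gates, and 109 of 112 shares moved without thinning and 71 with 3000 UMIs.

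In the genotype comparisons DESeq2 called 48 genes in neural, 63 in Sox10 and 296 in mesenchymal cells, with Zic1 at 2.73 in Sox10 cells, Zic1 at 2.64, Zic4 at 2.63, Zic2 at 1.94 and Zic5 at 2.21 in mesenchymal cells, and Zic4 at -0.0071 in neural cells. Without a filter on low counts, 145, 450, 325 and 713 genes were called in neural, roof plate, Sox10 and mesenchymal cells. Zic4 was at -0.0027 in neural cells and not called. In Sox10 cells Zic1 at 2.71 and Zic5 at 2.09 were called. In mesenchymal cells Zic1 at 2.61, Zic4 at 2.59, Zic2 at 1.90 and Zic5 at 2.16 were called. Neural Zic4 was at -0.0068 with DESeq2 size factors, -0.0012 with all barcodes and -0.033 with 6 libraries and a stage term, where 4, 0 and 2 genes were called in roof plate, Sox10 and mesenchymal cells. All barcodes gave 70 calls in roof plate and 7 in Sox10 cells. Thinning gave 2, 20, 22 and 11 calls, with roof plate Zic4 at -0.065, Zic2 at -0.012 and Zic5 at -0.11. Stricter gates gave 5 calls in roof plate, 5 in Sox10 and 26 in mesenchymal cells, with roof plate Zic4 at -0.15 and Zic5 at -0.12. Roof plate cells without a Twist1 UMI, a choice made after seeing the data, gave 4 calls, with Zic4 at -0.22 and Zic5 at -0.10.

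Between roof plate and neural cells Zic1 was at 0.13 and Zic4 at 0.35 without Twist1, at 0.063 and 0.32 with stricter gates, at 0.22 and 0.38 with thinning (4279 genes called), at -0.24 and -0.0077 with all barcodes, and Zic1 at 0.034 with all 7 libraries. Thinning gave 4401 calls between Sox10 and neural cells and 1968 in the Pax3 split, where all 7 libraries gave 3400. Between stages DESeq2 called 2837 genes in neural cells, no filter 3249 and, in roof plate cells, 2244, thinning 589 in roof plate cells, and control libraries alone 648 in neural cells, with Zic4 at 1.10 in neural and Zic2 at -0.017 in roof plate cells. Roof plate Zic1 was called at 0.64 without Twist1 and at 0.73 with stricter gates.

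Leaving out 1 library at a time gave 7 to 56 genotype calls in neural, 113 to 1077 in roof plate, 62 to 127 in Sox10 and 38 to 1256 in mesenchymal cells. In neural cells Zic1 ranged from -0.014 to 0.28, Zic4 from -0.18 to 0.18, Zic2 from -0.44 to 0.33 and Zic5 from -0.35 to 0.060. In roof plate cells Zic2 ranged from 0.12 to 0.70 and Zic4 from -0.0014 to 0.63. In Sox10 cells Zic1 ranged from 1.32 to 3.45, Zic2 from -0.29 to 2.09 and Zic5 from 0.28 to 2.94, and in mesenchymal cells Zic1 from 2.05 to 3.52, Zic4 from 1.77 to 3.71, Zic2 from 1.26 to 2.63 and Zic5 from 1.35 to 2.78. Between roof plate and neural cells Zic1 ranged from -0.19 to -0.083. Between stages 0 to 2739 genes were called in neural cells (Zic4 1.05 to 1.20) and 169 to 2238 in roof plate cells (Zic4 0.99 to 1.32, Zic2 -0.018 to 0.27), and the Pax3 split gave 3296 to 5800 calls.

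The replicate numbers share only a number, with 2 pairs whose deviations correlated at 0.371 in neural, 0.197 in roof plate, 0.153 in Sox10 and 0.185 in mesenchymal cells. With the replicate block 295 genes were called in neural, 138 in roof plate, 327 in Sox10 and 200 in mesenchymal cells, with Zic1 at 2.67 in Sox10 cells and Zic1 at 2.74 and Zic5 at 2.06 in mesenchymal cells.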

Other observations

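Post-mitotic neurons, taken as cells with at least 2 UMIs each of Elavl3 and Stmn2 and outside the other classes, held Zic UMIs. The part of neural RNA from outside the cells in these counts was not tested. At E10.5, where 422 to 708 such cells were found per library, Zic1 was at 87.1 and 81.6 CPM in the controls and at 117 and 84.9 in the nulls, Zic2 at 19.8 to 28.3 CPM, Zic4 at 17.3 to 20.2 and Zic5 at 10.5 to 15.8. Over the 6 libraries of E9.5 and E10.5 the mean of Zic1 was 71.98 ± 34.3 CPM (SD, n = 6) and that of Zic5 12.4 ± 4.98, against 236 ± 66.1 and 107 ± 25.0 in neural cells. The control E9.5 library held 21 of these cells and the null 32, so the values there rest on few counts.

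Within mesenchymal cells, those with a UMI of Hand2, a factor of ventral arch and cardiac mesenchyme, held less Zic1 than the rest in each E10.5 library. The values were 1.47 against 3.55 and 0.424 against 1.3 CPM in the controls and 2.77 against 13.3 and 8.86 against 20.7 CPM in the nulls. These are descriptions of cells within each library and were not tested.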
